A study of Caenorhabditis elegans with 4 samples.

Results

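The genes described here encode the proteins that build the thick filaments of muscle in Caenorhabditis elegans. They are the myosin heavy chains unc-54, myo-3, myo-1 and myo-2, the myosin light chains mlc-1, mlc-2 and mlc-3, and paramyosin, unc-15. A peak belonged to one of these 8 genes if it overlapped the WBcel235 position of the gene by at least 1 bp, whatever its strand. That rule gave 44 of the 2664 peaks of MSTR-1 CLIP (1.65%) and 15 of the 310 peaks of N2 CLIP (4.84%), and 7 of the 8 genes had at least 1 peak.

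A thick filament is a bundle of myosin II molecules, each made of a pair of heavy chains with motor heads and a regulatory and an essential light chain bound at each neck. In nematodes the filament is assembled around a core of paramyosin. In body wall muscle the heavy chain of unc-54 (myosin B) forms most of the filament and that of myo-3 (myosin A) its centre, whereas myo-1 and myo-2 encode the heavy chains of the pharynx, the muscular feeding pump. The genes mlc-1 and mlc-2 encode nearly identical regulatory light chains, and mlc-3 encodes the essential light chain.

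RNA that came down with a protein after UV crosslinking was sequenced by eCLIP from lysates of whole young adult worms held at 25 °C. The 4 libraries were 2 immunoprecipitations from worms with the allele F22D6.2(on49[MSTR-1::3xFLAG]) on chromosome I, 1 input of the same genotype, and 1 immunoprecipitation from untagged N2 worms, the wild-type strain. All were labelled as irradiated at 1.2 mJ/cm2. The labels number the 2 tagged libraries without saying whether they came from separate cultures. The p-values rest only on the spread between these libraries, taken largely from other peaks of similar level, and that spread may be technical. The columns do not say which is which, and they are called A and B. Peak positions are given as deposited, with no build stated for them.

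Values are scaled reads, the reads of a peak divided by 1 size factor per library, as the authors deposited them. The fold of a peak is the mean of libraries A and B over the input, on that scale. Reads inside all MSTR-1 peaks numbered 2438775 in A, 3592308 in B and 408945 in the input, and those inside N2 peaks 934439 in N2 CLIP. The thick filament peaks were deeper than most, with medians of 96, 143 and 44.5 reads in A, B and the input against 15, 24 and 8 over all peaks. As to the tissues in these lysates, peaks lay over 2 of 4 marker genes of the intestine and 2 of 3 of the epidermis. They also lay over 1 of 3 of the germ line and 1 of 3 of neurons. In muscle they lay over 3 of 3 markers of the body wall and 1 of 4 of the pharynx. The muscle markers are genes described here, except tnc-2 and tni-4 of the pharynx, which had no peak. Unlike the thick filament genes, the intestinal markers vit-2 and vit-6, which encode yolk proteins, stood below the input, at 0.61-fold and 0.56-fold. Of their 14 peaks limma called 5 lower and 0 higher, against 1.76% and 12.7% of all peaks (median log2 change of the 14 -0.76). The other markers outside muscle went both ways. In the epidermis rol-6 stood at 3.05-fold and col-19 at 1.09-fold, in neurons snb-1 at 1.55-fold and in the germ line gld-1 at 0.71-fold. Input reads were 7, 440, 21 and 15 in that order, and limma called 0 of their peaks higher or lower. Whether these values bear on those of muscle was not tested. No sequence is printed, since no genome or sequence table was used here.

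The first comparison was that of MSTR-1 CLIP with the input, which asks which of these transcripts were more abundant in the immunoprecipitate. Of the 44 peaks, 13 were higher than the input (29.5%), 0 were lower and 31 did not pass (limma over all 2664 peaks, adjusted p under 0.05). Over all peaks 12.7% were called higher and 1.76% lower. On simulated data limma made a larger share of false calls than this threshold, so its adjusted p-values may be too low. No thick filament peak had a log2 change below 0, so 0 were lower at an unadjusted p under 0.05 too. Among peaks with at least 50 reads over the 3 libraries, 13 of 36 thick filament peaks (36.1%) were called higher against 25.2% of all 1268 such peaks. The calls were 7 of 18 peaks over unc-54, 3 of 9 over unc-15, 1 of 5 over mlc-1, 1 of 2 over mlc-2 and 1 of 2 over mlc-3, with 0 of 6 over myo-3 and 0 of 2 over myo-2, where none had an unadjusted p under 0.05 either.

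The median log2 change of the 44 peaks was 0.78, and that of all peaks 0.45. Both CLIP libraries stood above the input at 40 of the 44 peaks, against 53.0% of all peaks. Among peaks with at least 50 reads it was 32 of 36 against 54.9%. The exceptions were peak 17 of unc-54, peaks 2 and 6 of unc-15 and peak 1 of mlc-2, counting the peaks of a gene from its lower-coordinate end, and in each of them 1 library lay just below the input.

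These calls rest on the scaling and on the model of the variance. edgeR on the recovered reads with the authors' scaling called 10 of the 44 higher and 0 lower (10.5% and 1.24% of all peaks). With TMM scaling it called 0 higher and 0 lower, with 5 at an unadjusted p under 0.05 (4.43% higher and 5.63% lower over all peaks), and with column totals 0 higher and 30 lower (1.88% and 41.7%). DESeq2 called 0 of the 34 thick filament peaks to which it gave an adjusted p (3 of all 44 had an unadjusted p under 0.05), against 9.4% higher and 9.2% lower over the 1011 such peaks of the table. limma without a variance trend called 0 of the 44 but also 0.0% of all peaks in each direction, so it separates nothing. With pseudocounts of 0.5 and 5 limma called 13 higher and 0 lower (12.8% and 1.88%, then 12.1% and 1.65%, of all peaks), and among peaks with at least 50 reads alone 15 higher and 0 lower (27.6% and 5.05%). As there is 1 input, its variation was taken to equal that between A and B, and limma borrows the variance of a peak from others at its level.

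**Figure D1:**
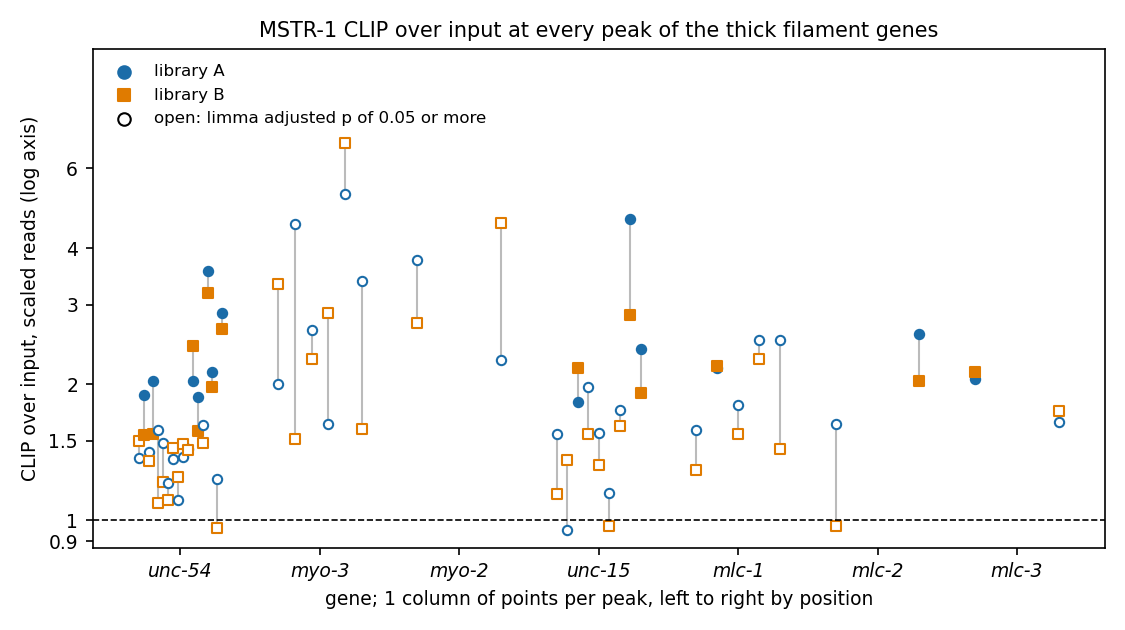
Scaled reads of CLIP over input (log axis) at each of the 44 MSTR-1 peaks, grouped by gene, with circles for library A, squares for library B and filled symbols for the 13 peaks called higher by limma. The peaks of unc-54 sit mostly between 1 and 2, those of myo-3 and myo-2 lie higher with wide gaps between the libraries, and at 4 peaks 1 library falls below the dashed line at 1.

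The body wall heavy chain unc-54 (chromosome I, 14855901 to 14863482) carried 18 peaks, a number exceeded only by let-2 (20) among all genes with an MSTR-1 peak and equalled by emb-9. Its peaks held 2644 reads in library A, 4019 in B and 1251 in the input, or 2871, 2633 and 1804 scaled reads. Both CLIP libraries were therefore above the input, at 1.59-fold in A and 1.46-fold in B. The fold of the gene was 1.53 (95% interval from input counting alone 1.44 to 1.61), and its log2 value 0.61 ± 0.088 (SD, n = 2). The 18 peaks covered 61.7% of the gene.

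The folds of single unc-54 peaks ran from 1.10 to 3.37, with a median of 1.44. Peak 15 (14861242 to 14861413) had the highest, with 52 reads in A, 77 in B and 11 in the input, or 56.5, 50.4 and 15.9 scaled reads. Both CLIP values lay more than 3-fold above the input. The log2 change was 1.69 with an SE of 0.41 (adjusted p = 0.000532 in limma and 0.00911 in edgeR). Peak 12 (14859829 to 14860151) had 127, 251 and 47 reads in A, B and the input, and a fold of 2.23 (limma adjusted p = 0.000677). Peak 16 (14861609 to 14861923) had 119, 182 and 42 reads and a fold of 2.05 (limma adjusted p = 0.00537).

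Peak 2 (14856547 to 14856890), with the most CLIP reads of the gene, had 247 reads in A, 334 in B and 98 in the input. Its fold was 1.72 (log2 change 0.77, SE 0.25, limma adjusted p = 0.015). The highest fold and the highest CLIP read count of unc-54 thus lay in different peaks. The other 3 called peaks, numbers 4, 13 and 18, had log2 changes of 0.83, 0.78 and 1.41. edgeR with the authors' scaling did not call peaks 13 and 18 (adjusted p = 0.0671 and 0.0524).

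Along unc-54 the CLIP level followed the input. Per kb of peak the CLIP mean ran from 289.8 to 922 scaled reads and the input from 92.8 to 667, and across the 18 peaks log2 levels of CLIP and input correlated at r = 0.88 (Spearman's rho 0.86). These points share 1 gene and the same libraries. The log2 folds of libraries A and B, which share the input, correlated at 0.89 across the peaks. With the gene cut into 3 equal segments by coordinate, the fold was 1.499 in the 6 peaks of the lowest segment, 1.48 in the 7 of the middle one and 1.68 in the 5 of the highest. Their intervals from input counting overlapped (1.38 to 1.63, 1.36 to 1.63 and 1.47 to 1.92).

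The other body wall heavy chain, myo-3 (chromosome V, 12226816 to 12234343), had 6 peaks over 11.5% of a gene of similar length. These held 78 reads in A, 119 in B and 21 in the input. The fold was 2.80 in A and 2.57 in B, and 2.69 for both (interval 1.76 to 4.34). That interval lies above the one of unc-54, but peak by peak limma passed none of the 6 (adjusted p from 0.315 to 0.459). Peak 4 (12229411 to 12229574) had 13, 38 and 6 reads in A, B and the input. Peak 5 (12230118 to 12230255), with 7, 15 and 1, had the highest fold of all 44, at 6.04 with an interval of 1.08 to 239. With 1 to 6 input reads a peak, the size of these folds was barely determined.

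The pharyngeal heavy chains gave little. No peak in either table overlapped myo-1 (chromosome I, 7258946 to 7267057), and since reads outside peaks were not analysed here its level is unknown. The gene myo-2 (chromosome X, 12468061 to 12475348) had 2 peaks over 4.72% of its length. They held 5 and 3 reads in library A, 6 and 10 in B and 1 each in the input. The fold of the gene was 3.32 with an interval of 0.92 to 27.4, which includes no difference, and limma passed neither peak (adjusted p = 0.806 and 0.801). The body wall chains together held 2722 and 4138 reads in A and B against 8 and 16 for the pharyngeal chains. In lysates of whole worms, fewer cells of a type and less RNA per cell cannot be told apart.

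Paramyosin, unc-15 (chromosome I, 7376604 to 7383197), had 9 peaks with 819 reads in A, 1220 in B and 362 in the input, or 889, 799 and 522 scaled reads. CLIP stood above the input at 1.70-fold in A and 1.53-fold in B. The fold of the gene was 1.62 (interval 1.46 to 1.80) and its log2 value 0.69 ± 0.11 (SD, n = 2).

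The highest CLIP over input in unc-15 lay toward its higher-coordinate end. Peak 8 (7381466 to 7381801) had 111 reads in A, 113 in B and 18 in the input, or 120.5, 74.0 and 26.0 scaled reads. Library A was at 4.64-fold and B at 2.85-fold, and the log2 change of 1.82 (SE 0.34) had the lowest adjusted p of all 44 peaks (limma 1.60e-06, edgeR 0.000146, edgeR with TMM 0.0595). Peak 9 (7383008 to 7383193), which ends 4 nt from the end of the gene, had 105, 139 and 33 reads and a fold of 2.15 (limma adjusted p = 0.00564). Both peaks together stood at 2.72-fold (interval 2.07 to 3.65). The 4 peaks of the lowest of 3 equal segments stood at 1.51 (1.30 to 1.78) and the 3 of the middle one at 1.35 (1.15 to 1.60), so the interval of peaks 8 and 9 lay above both. The difference between segments was not tested, since peaks of a gene are not replicates.

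Among the lower-coordinate peaks, peak 3 (7378201 to 7378500) had 102, 201 and 42 reads in A, B and the input and a fold of 2.001 (limma adjusted p = 0.00834). Peak 5 (7378838 to 7379156) had the most CLIP reads of unc-15, with 135 in A, 190 in B and 65 in the input, and a fold of 1.45 that did not pass (limma adjusted p = 0.243). Across the 9 peaks log2 CLIP and input levels per kb correlated at r = 0.45 (rho 0.42), below the value in unc-54. The CLIP mean ran from 234.7 to 554 scaled reads per kb, with its top at peak 9, and the input from 77.5 at peak 8 to 294.8 at peak 5.

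**Figure D2:**
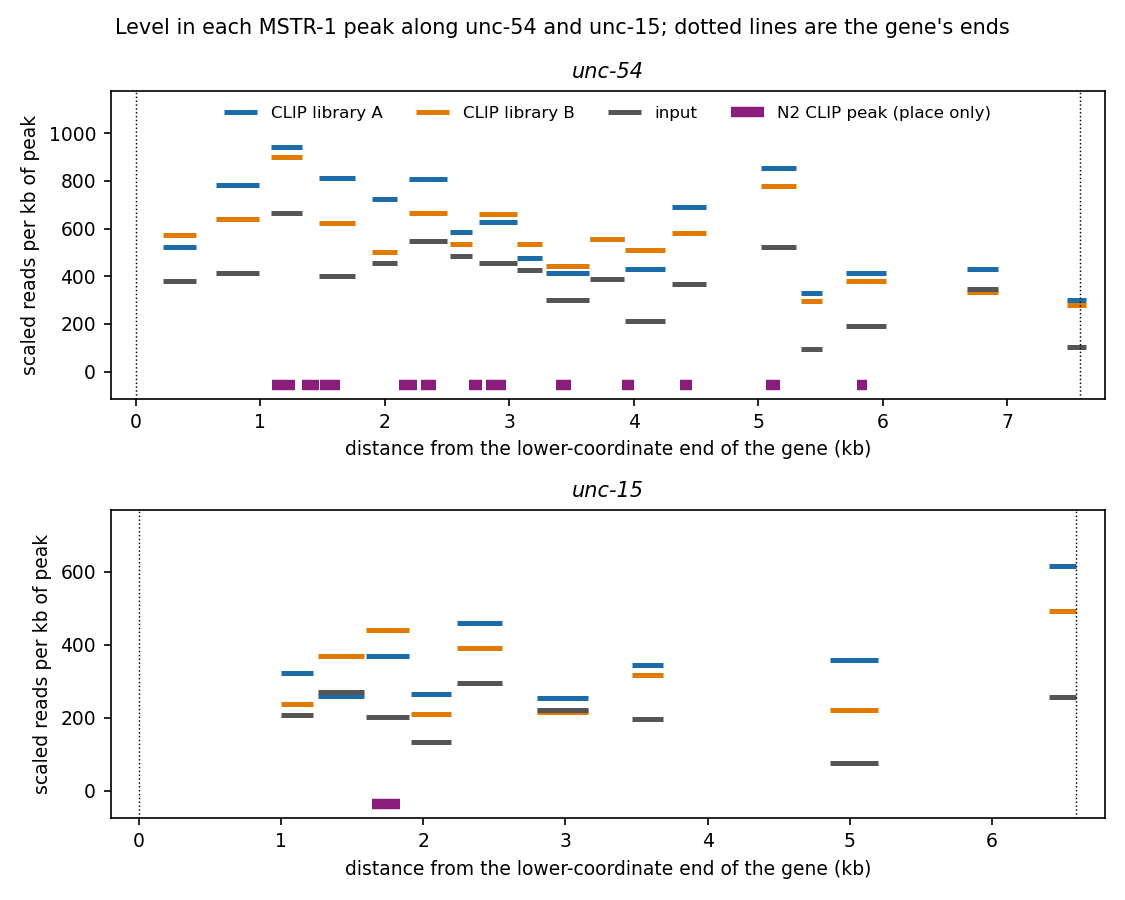
Scaled reads per kb of peak in CLIP library A, library B and the input against distance in kb from the lower-coordinate end of unc-54 (18 peaks) and unc-15 (9 peaks), with the place of N2 CLIP peaks as bars at the base. The input lies under both CLIP libraries at 17 unc-54 peaks and 7 unc-15 peaks, and the ratio of CLIP to input is highest at peak 15 of unc-54 and peak 8 of unc-15.

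The essential light chain mlc-3 (chromosome III, 5565025 to 5567007) had 2 peaks, one at each end of the gene, with 1179 nt between them that held no peak. Peak 1 (5565040 to 5565525) had 216 reads in A, 370 in B and 79 in the input, or 234.5, 242.4 and 113.9 scaled reads. The CLIP libraries nearly coincided at 2.06-fold and 2.13-fold (log2 change 1.06 with an SE of 0.25, adjusted p = 0.000379 in limma and 0.00346 in edgeR). Peak 2 had 81, 142 and 37 reads and a fold of 1.70 (limma adjusted p = 0.0985). The gene stood at 1.97-fold (interval 1.64 to 2.38), above the interval of unc-54.

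The regulatory light chains mlc-2 (chromosome X, 17455792 to 17456586) and mlc-1 (17459210 to 17460778) are neighbours on that chromosome, and their peaks are listed on opposite strands. Peak 2 of mlc-2 (17456268 to 17456608) had 227 reads in A, 296 in B and 66 in the input, or 246.5, 193.9 and 95.2 scaled reads. Both libraries lay above 2-fold, and the log2 change was 1.19 with an SE of 0.26 (adjusted p = 6.90e-05 in limma and 0.00109 in edgeR). Peak 1 of mlc-2, which also overlaps the neighbouring gene C36E6.2, had 150, 148 and 69 reads. It was at 1.64-fold in A and 0.97-fold in B and did not pass (limma adjusted p = 0.548).

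Over mlc-1, peak 2 (17459670 to 17459806) was called, with 49 reads in A, 82 in B and 17 in the input and a fold of 2.18 (limma adjusted p = 0.035). edgeR with the authors' scaling did not call it (adjusted p = 0.106). Peak 3 (17459867 to 17460242), the deepest of the gene, had 124, 178 and 52 reads and a fold of 1.68 (limma adjusted p = 0.0674). Peak 4 (17460247 to 17460401) had 20, 30 and 6 reads and the highest fold of mlc-1, 2.39 (limma adjusted p = 0.206). Peaks 4 and 5 overlap each other, so some reads may be counted in both. The fold was 1.80 for mlc-2 (interval 1.52 to 2.14) and 1.72 for mlc-1 (1.44 to 2.07), and these intervals overlap. As the coding sequences are close copies and the placement of reads between them was not examined, values of either gene alone are uncertain.

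Levels were compared between genes per kb of peak. The CLIP mean was 582 scaled reads for unc-54 (607 in A and 557 in B), 562 for mlc-2 (657 and 467), 425 for mlc-3 (417 and 433), 332 for unc-15 (350 and 314), 297 for mlc-1 (319 and 274), 93.9 for myo-3 (97.8 and 90.0) and 27.9 for myo-2 (25.3 and 30.5). The libraries of unc-54 and mlc-2 overlapped in level, as did those of unc-15 and mlc-1, so neither pair is ordered beyond its spread. The other neighbours in the order did not overlap. The input gave the same order, from 382 for unc-54 to 8.39 for myo-2.

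The order of the folds ran almost the other way, from 3.32 for myo-2 and 2.69 for myo-3 through 1.97, 1.80 and 1.72 for mlc-3, mlc-2 and mlc-1 to 1.62 for unc-15 and 1.53 for unc-54. Input reads ran from 2 for myo-2 and 21 for myo-3 to 362 for unc-15 and 1251 for unc-54, and the part of depth in the order of folds was not tested. The table lists no peak with a deposited fold, the sum of A and B over the input, under 1, so a gene's fold describes selected peaks. On the scale of the folds given here, which use the mean of A and B, that cut lies below 1. By class, the median log2 change over peaks was 0.78 for the 24 peaks of body wall heavy chains, 1.21 for the 2 pharyngeal peaks, 0.86 for the 9 light chain peaks and 0.74 for the 9 paramyosin peaks. The SD between the CLIP libraries was 0.12 to 0.17 for these medians, so the body wall, light chain and paramyosin medians lay within 1 SD of each other. This closeness depends on the shallow myo-3 peaks, whose median was 1.18 against 0.52 for unc-54. With peaks of at least 50 reads alone the medians were 0.52, 0.90 and 0.74, and the first and second differ by more than these SDs. With 2 libraries against 1, an exact permutation test of such values cannot go below p = 0.33, so class differences were not tested.

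**Figure D3:**
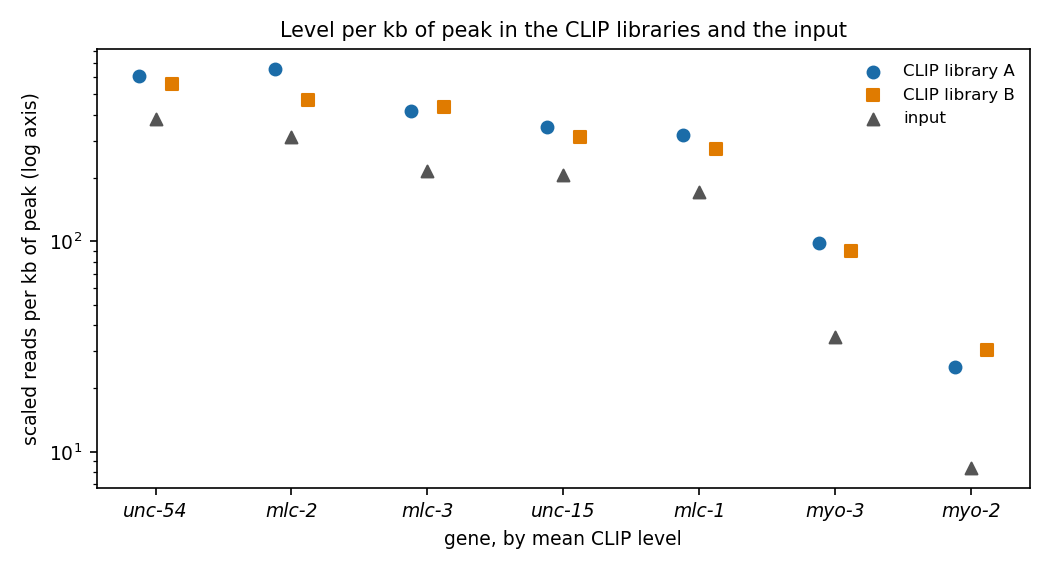
Scaled reads per kb of peak (log axis) for the 7 genes with a peak, ordered by the mean CLIP level, with circles for library A, squares for library B and triangles for the input. All 3 series fall from unc-54 and mlc-2 to myo-3 and myo-2, and the triangle lies below both CLIP symbols in every gene.

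Library A exceeded library B in scaled reads at 30 of the 44 peaks (68.2%), against 51.4% of all peaks. The median log2 difference A minus B was 0.15 over the 44 peaks and 0.020 over all peaks. The widest gene was mlc-2, at 0.49, and mlc-3 (-0.057) and myo-2 (-0.27) were higher in B. The median absolute difference was 0.25 against 0.48 over all peaks, which were shallower.

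Peaks were spread along the genes. Of the 44, 11 (25%) had their centre in the highest of 3 equal segments of the gene by coordinate. This segment held 5 of 18 peaks of unc-54, 0 of 6 of myo-3, 0 of 2 of myo-2 and 2 of 9 of unc-15. Among the light chains it held 2 of 5 peaks of mlc-1, 1 of 2 of mlc-2 and 1 of 2 of mlc-3. The gene table used here gives no strand, so the ends are named by coordinate and not as 5' or 3'. Peaks are listed on the plus strand for unc-54, myo-3, unc-15 and mlc-2 and on the minus strand for myo-2, mlc-1 and mlc-3, and each gene had its peaks on 1 strand. If the listed strands are those of the genes, the highest segment is at opposite ends of plus and minus transcripts, and the pooled 25% describes neither end. The peaks of myo-3 left the highest-coordinate 3185 nt of the gene without a peak, and those of myo-2, listed on the other strand, the highest 4637 nt. The longest stretch without a peak inside unc-54 was 657 nt, and inside unc-15 it was 1207 nt, just before peak 9. The last peak of unc-54 ran 52 nt past the annotated end of the gene and that of mlc-2 22 nt.

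Untagged N2 worms give the background of the immunoprecipitation. Their peaks lay over unc-54 (12), mlc-2 (2) and unc-15 (1), and no gene of the N2 table had more peaks than unc-54. All 15 overlapped an MSTR-1 peak, against 73.2% of all N2 peaks. From the other side, 14 of the 44 MSTR-1 peaks overlapped an N2 peak on the same strand (31.8%), against 8.75% of all peaks. Among peaks with at least 50 reads the shares were 38.9% and 16.6%. Of the 14, 11 lay over unc-54, 2 over mlc-2 and 1 over unc-15. Some neighbouring peaks overlapped the same N2 peak, so the 14 are not independent and no interval is given for their share. If an N2 peak had to cover at least 50% of the MSTR-1 peak, the count was 5 of the 44 (11.4%), against 5.26% of all peaks. N2 CLIP is a single library, so none of this has a replicate check.

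The N2 peaks of unc-54 held 406 reads in N2 CLIP and 691 in the input. N2 CLIP stood at 1.68-fold over the input (interval from input counting alone 1.56 to 1.82), where MSTR-1 CLIP stood at 1.53-fold over its own 18 peaks. Single N2 peaks of unc-54 had 22 to 47 reads and folds of 1.15 to 3.66. The N2 peak of unc-15, with 20 reads against 35, was at 1.64-fold (interval 1.18 to 2.35), and the MSTR-1 peak it overlaps was at 2.001-fold. The 7 MSTR-1 peaks of unc-54 with no N2 peak were numbers 1, 2, 5, 9, 15, 17 and 18, so peak 15, which had the highest MSTR-1 fold of the gene, was among them. At its MSTR-1 fold peak 15 would have given 12.9 N2 reads, computed as below. This is fewer than the 22 of the weakest N2 peak of unc-54, so the lack of an N2 peak does not set peak 15 apart.

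At mlc-2 an N2 peak (17456120 to 17456279) filled the 133 nt between the 2 MSTR-1 peaks of the gene and touched them by 15 and 11 nt. It held 42 reads in N2 CLIP and 7 in the input and stood at 17.2-fold (interval 8.34 to 42.7). No other N2 peak of these genes exceeded 3.66-fold. The other N2 peak of mlc-2, inside MSTR-1 peak 2, had 22 reads against 45 and was at 1.40-fold, where the MSTR-1 fold was 2.31.

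The 15 N2 peaks formed 19 pairs with MSTR-1 peaks, and the N2 fold exceeded the MSTR-1 fold in 12. Among all 243 pairs of the series with input reads in both tables it did so in 192. The median folds of the 19 pairs were 1.64 for N2 and 1.43 for MSTR-1. The folds of both tables also have unlike floors, since the deposited MSTR-1 fold is a sum over A and B and the fold used here their mean. Among the 243 pairs the lowest was 1.002 for N2 and 0.53 for MSTR-1, so counting the higher fold is uneven from the start. Paired peaks differ in extent, and some barely overlap. The N2 peak of unc-54 at 14857239 to 14857371 lies between MSTR-1 peaks 3 and 4 and shares 1 bp with each. It makes a pair with both, so a pair need not describe the same stretch of RNA. Folds of both tables use the input of the tagged genotype with separate scaling, so the pairs are given as values with no test.

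Some deep MSTR-1 peaks had no N2 peak. Taking the MSTR-1 fold and the input reads of a peak, and turning them into N2 reads with the size factors of the N2 table, 33 of the 44 peaks would have given at least 11 N2 reads, which is the lowest number that any listed N2 peak holds. Of these, 14 had an N2 peak (42.4%), against 26.5% of all 660 such peaks. By gene this was 11 of 17 for unc-54 and 2 of 2 for mlc-2, but 1 of 9 for unc-15, 0 of 3 for mlc-1 and 0 of 2 for mlc-3. For peak 1 of mlc-3 the number of N2 reads so computed was 57.7, and for the 9 peaks of unc-15 it was 15.5 to 32.8. For myo-3 and myo-2 it was at most 4.72, so an N2 peak could not be looked for at this depth. These numbers are counted over whole MSTR-1 peaks, with a median of 256 nt and 485 nt for peak 1 of mlc-3. N2 peaks were narrower, with a median of 122 nt over the series. A peak above 11 reads by this count could thus lack an N2 peak at equal fold, and its lack does not show absent background. The table holds no N2 value where no N2 peak was called, so the level there is not known.

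**Figure D4:**
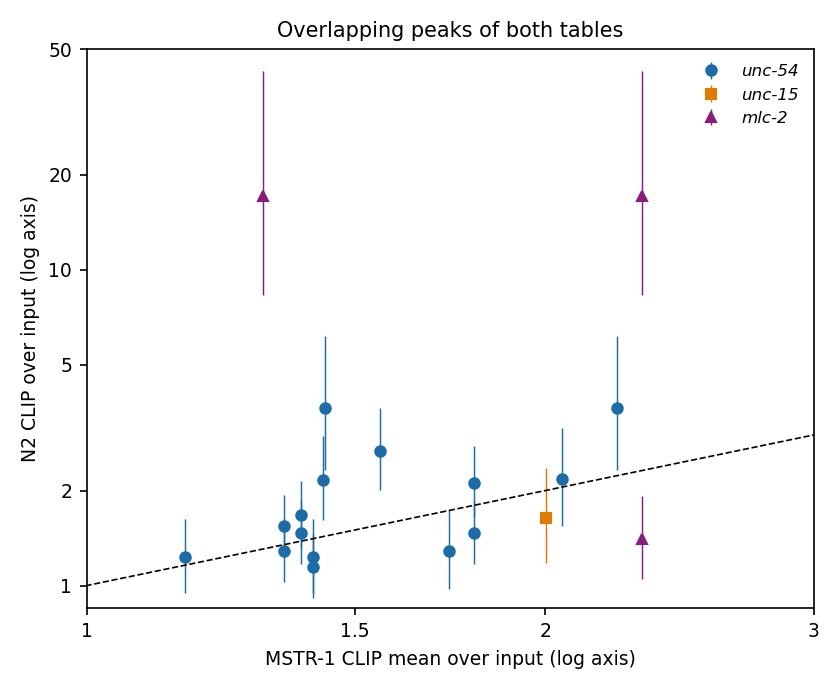
Fold of N2 CLIP over input against the mean fold of MSTR-1 CLIP over input (both log axes) for the 19 overlapping pairs of peaks over unc-54, unc-15 and mlc-2, with vertical bars for the 95% interval from input counting alone and a dashed line of equal folds. Of the points 12 lie above the line, and the N2 peak between both mlc-2 peaks, drawn with each of them, stands apart at 17.2-fold.

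Other genes of the sarcomere were counted from lists chosen with earlier results of these data known. Of 8 genes for proteins that organise or bind thick filaments, 4 had peaks, 20 in all, with a median log2 change of 1.24. limma called 0 of the 20 higher or lower (1 at an unadjusted p under 0.05), against 12.7% and 1.76% of all peaks. The gene unc-22, which encodes the giant kinase twitchin, had 11 peaks with 75, 138 and 22 reads in A, B and the input and a fold of 2.71 (interval 1.79 to 4.32). The gene unc-89, which encodes an obscurin-like protein, had 7 peaks with 57, 126 and 18 reads and a fold of 2.78 (1.76 to 4.69). The single peak of ttn-1, a titin-like gene, had 9 and 17 reads with 0 in the input, at least 2.42-fold higher against a floor of 3 reads (1.97-fold by the lower limit used for the other intervals). These folds lay near that of myo-3, whose peaks had similarly few reads.

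Of 18 thin filament genes 14 had peaks, 42 in all, with a median log2 change of 0.64. limma called 12 of the 42 higher and 0 lower, against 12.7% and 1.76% of all peaks. TMM gave 4 higher and 0 lower, against 4.43% and 5.63% of all peaks. By CLIP reads the leading genes were act-1 and act-4, which encode actins, and lev-11, which encodes tropomyosin. Their folds were 1.44 for act-1 (1.33 to 1.56), 1.64 for act-4 (1.49 to 1.81) and 1.68 for lev-11 (1.48 to 1.91). These intervals overlapped those of unc-54 and unc-15. The intervals of the actin genes act-2 and act-3 did not, and both genes are named after their values were seen. The gene act-3 had 426, 630 and 8 reads in A, B and the input, a fold of 37.9 (19.3 to 87.9) and all 4 of its peaks called higher, which makes 4 of the 12 calls, whereas act-2 stood at 0.99-fold (0.83 to 1.18) with 0 called. Actin genes are close copies, so single values are uncertain. Of 16 other myosin genes found in the gene table, 5 had peaks, 11 in all, of which limma called 0 higher or lower (0 at an unadjusted p under 0.05) and a median of -0.10. The non-muscle heavy chain nmy-1 had 5 peaks with 95, 128 and 63 reads and a fold of 1.03 (0.80 to 1.34), below the interval of every thick filament gene with over 2 input reads. The other listed myosins with most CLIP reads were mlc-4, the non-muscle regulatory light chain, at 1.59-fold (0.84 to 3.47) and mlc-5 at 1.04-fold (0.58 to 2.09), with 9 and 11 input reads.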

How the data were processed

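The tools named are STAR, deepTools, cutadapt and UMI-tools, per the submitters' processing notes, with no versions. No source used here gives the peak caller, its thresholds, the build or the annotation. The library columns of the 2 peak tables the authors deposited hold a signal, the reads per peak divided by 1 size factor per library (MSTR-1 table: A 0.921, B 1.53, input 0.693. N2 table: N2 CLIP 0.591, input 1.69). All values lay within 0.02 of a whole multiple of 1 step, so whole reads were recovered. The deposited fold ratio is the sum of both CLIP columns, or the N2 column, over the input. The column marked as control was taken to be the Input library.

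Peaks were named with the WBcel235 RefSeq gene table, leaving out 15363 piRNA genes. The main test was limma 3.58.1 in R 4.3.3 on log2(scaled reads + 1), which understates changes of low peaks, with a variance trend and Benjamini-Hochberg adjustment at 0.05 over all 2664 peaks. edgeR 4.0.16 and DESeq2 1.42.0 on recovered reads, other scalings, pseudocounts of 0.5 and 5 and a filter of 50 reads were alternatives. On simulated data with known changes, the share of false calls was above the threshold for limma and below it for edgeR. Those data used the mean levels of these peaks and the same spread setting for every peak. The real spread is not known, so the shares for these data may differ. Fold intervals come from exact 95% Poisson limits on the input reads alone and cover counting error only. Members and lists were chosen with earlier results of these data known. Peaks given in full were those with most CLIP reads, the highest deposited fold and up to 3 calls a gene. The plan to place peaks by the start of each gene was changed to the lower-coordinate end, as the gene table has no strand.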

Additional observations from a re-analysis of the deposited data

How the results depend on the processing

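The direction of the medians against the input rests on scaling and turned only with column totals. The number of calls depended on the scaling and on the model of the variance. Of the 44 peaks, DESeq2, edgeR with TMM, edgeR with column totals and limma without a trend each called 0 higher, with 3, 5, 31 and 4 of either sign at an unadjusted p under 0.05. limma without a trend called 0 of all 2664 peaks. Column totals called 30 of the 44 lower, against 41.7% of all peaks. With them the median over all peaks was -1.48, against 0.45 with the authors' factors, 0.092 with those of DESeq2 and 0.058 with TMM. Both pseudocounts, the filter of 50 reads and peaks over a single gene gave 13 to 15 calls. Over all peaks the pseudocounts of 0.5 and 5 called 12.8% and 12.1% higher, and the filter 27.6% of 1268. Calls for peaks over a single gene came from the main fit, which called 12.7%. In the order all members, body wall heavy chains, pharyngeal heavy chains, light chains and paramyosin, the median log2 values were 0.39, 0.38, 0.94, 0.49 and 0.35 with DESeq2 factors, 0.35, 0.34, 0.91, 0.46 and 0.31 after TMM scaling, then -1.27, -1.29, -0.30, -1.08 and -1.31 with column totals. Pseudocounts of 0.5 and 5 moved the pharyngeal median to 1.40 and 0.59, and the filter moved that of body wall chains to 0.52 and left no pharyngeal peak. With 1 CLIP library alone the medians were 0.63 to 0.85 for all members, 0.58 to 0.78 for body wall chains and 0.79 to 1.04 for light chains. Column totals turned the log2 value of every gene, to -1.47 for unc-54, -0.65 for myo-3, -0.29 for myo-2, -1.39 for unc-15, -1.30 for mlc-1, -1.24 for mlc-2 and -1.10 for mlc-3. They turned the peaks given in full, except peak 5 of myo-3, to -1.30, -0.90, -0.33 and -1.04 for peaks 2, 12, 15 and 16 of unc-54, -0.85 for peak 4 of myo-3, -0.26 for peak 2 of myo-2, -1.06, -1.55, -0.21 and -0.98 for peaks 3, 5, 8 and 9 of unc-15, -0.95, -1.34 and -0.82 for peaks 2, 3 and 4 of mlc-1, -0.88 for peak 2 of mlc-2 and -1.01 for peak 1 of mlc-3. N2 folds with column totals were 0.19 for unc-54, 0.185 for unc-15 and 0.398 for mlc-2. With at least 50% of the MSTR-1 peak covered, 5 peaks overlapped N2 (5.26% of all peaks). The cause of these shifts was not tested. No paired analysis was possible because there is a single input library and the columns carry no replicate numbers. Depth limits myo-3 and myo-2, whose peaks had at most 6 input reads.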
